A study of Mus musculus with 12 samples.

Results

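The genes described here are the 10 named components of the MHC class I presentation machinery: the heavy chains H2-K1 and H2-D1, the light chain B2m, the peptide transporter subunits Tap1 and Tap2, the loading factor Tapbp, the immunoproteasome subunits Psmb8, Psmb9 and Psmb10, and the regulator Nlrc5. They were chosen by symbol from the 770 genes of the nCounter mouse PanCancer Immune Profiling Panel, a hybridization assay that counts barcoded probes bound to each transcript. The table held a row for 9 of the 10, and B2m was not analysed here. Levels were measured in 12 subcutaneous tumors of A20, a mouse B-cell lymphoma line, grown in female Balb/c mice that the study's methods describe as 7 to 8 weeks old. Treatment of the established tumors began about 7 days after the cells were implanted. The control tumors (PBS, n = 4) were injected with PBS. The GLA-SE tumors (n = 4) received 10 µg of the TLR4 agonist GLA in 50 µl of a 2% stable emulsion, the product that the study calls G100, and the SE tumors (n = 4) received the emulsion without GLA. All tumors were injected 3 times, every other day, and taken 2 h after the last injection. The labels assign each sample to its own mouse. A20 is 1 transplanted cell line, and each sample is RNA of a whole tumor, so it contains transcripts of host cells as well as of lymphoma cells.

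MHC class I molecules display peptides from inside the cell to CD8 T cells. Peptides are cut from proteins by the proteasome, whose standard catalytic subunits are exchanged for immunoproteasome subunits under interferon, and are carried into the endoplasmic reticulum by the TAP transporter. There tapasin helps to load them onto a heavy chain paired with beta-2 microglobulin. NLRC5 is the transactivator of class I genes, as CIITA is of class II genes, and both interferon and NF-kB signaling, which lies downstream of TLR4, are known to raise class I transcription.

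In RefSeq's order of protein-coding genes on GRCm38.p6, 7 of the 10 genes lie on chromosome 17, where Psmb9, Tap1, Psmb8 and Tap2 are direct neighbours. Nlrc5 and Psmb10 lie on chromosome 8 and B2m on chromosome 2. RefSeq promoter windows of 300 bases, from 250 before to 50 after the annotated start, were matched by symbol for 8 of the 10 genes, all but Tap2 and Nlrc5. The stretches shown were selected because both heavy chains were among the 3 genes with the largest rises and because Tap1 and Psmb9 share 1 promoter region. They are written 5′ to 3′ on the strand of the named gene, from the C57BL/6J reference and not from Balb/c, whose class I haplotype differs. Capitals mark matches, on either strand, to GGGANNNNCC (a kappa B type motif), AANNGAAA (an interferon regulatory factor type motif), TGACG (the core of a cyclic AMP response element) or CCAAT. The H2-K1 stretch is chr17:34000348-34000487 on the minus strand (upstream of the first of 2 annotated starts), the H2-D1 stretch is chr17:35262894-35263033 on the plus strand, and the Tap1 stretch, chr17:34187331-34187555 on the plus strand, reaches from the Psmb9 start to the Tap1 start.
H2-K1: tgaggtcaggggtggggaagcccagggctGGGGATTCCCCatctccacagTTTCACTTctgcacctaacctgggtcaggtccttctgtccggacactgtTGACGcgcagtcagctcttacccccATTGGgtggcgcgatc
H2-D1: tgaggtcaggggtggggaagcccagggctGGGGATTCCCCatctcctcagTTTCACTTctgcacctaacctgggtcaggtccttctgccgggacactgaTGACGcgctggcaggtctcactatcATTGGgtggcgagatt
Tap1: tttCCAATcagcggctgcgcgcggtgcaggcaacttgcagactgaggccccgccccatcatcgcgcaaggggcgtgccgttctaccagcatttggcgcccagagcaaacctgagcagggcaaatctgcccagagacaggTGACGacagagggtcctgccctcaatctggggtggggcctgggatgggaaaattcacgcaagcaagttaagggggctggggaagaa

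The H2-K1 and H2-D1 stretches were identical at 127 of 140 bases, and the same 4 motifs stood in the same order in each. In H2-K1 the kappa B match began at -111 (the base before the annotated start is -1), with overlapping matches on both strands, the interferon type match at -90 and TGACG at -41. In H2-D1, whose annotated start lies 60 bases further downstream, they began at -171, -150 and -101. B2m had matches to the same motifs, its kappa B and interferon type matches lying at -127 and -137. Over the 8 genes with a window, kappa B and interferon type matches were found in 3 each (H2-K1, H2-D1 and B2m), TGACG in 5 and CCAAT in 6. Of 32851 promoter windows of the same length, 20.7% held a kappa B match, 23.9% an interferon type match, 20.8% TGACG and 37.4% CCAAT. The motif TTCNNNGAA (a STAT type motif) was found in Psmb8 at -97 and in 8.30% of all windows. Such matches describe letters in a window and do not show binding in these tumors.

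The deposited values were counts, with totals of 810260 to 1612415 per tumor. Counts were divided, tumor by tumor, by the geometric mean of 17 of the panel's 20 reference genes, so a scaled count is comparable between tumors for 1 gene but not between genes, whose probes differ. SE replicate 4 stood apart, with a geometric mean over the 20 reference genes of 959 counts, against 1460 to 2587 in the other 11 tumors. The 10 B-cell markers were all detected, the lowest being Cd79a, a B-cell receptor subunit, at 73.2 scaled counts or more in every tumor. Their summed level was 21830 to 25247 in PBS, 15361 to 25694 in SE and 17992 to 21161 in GLA-SE tumors. Groups were compared with edgeR's quasi-likelihood test on the 750 genes that are not reference genes, and a gene was called at an adjusted p under 0.05 (Benjamini-Hochberg over the 750). In whole tumors, fewer cells of a type and less RNA per cell cannot be told apart.

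On the reference gene scale, 8 of the 9 measured class I genes were higher in GLA-SE than in PBS tumors, with the heavy chains and Nlrc5 raised the most and Psmb8 the least, although scaling to the panel median turned all 9 to lower values, as given further on. Over the whole panel, 512 of 750 genes (68.3%) were called higher and 3 lower. The same 8 class I genes were higher in every GLA-SE tumor than in every PBS tumor, which was also true of 63.6% of all genes tested. An exact two-sided permutation test of each gene gave p = 0.0286, the smallest that 4 tumors against 4 allow, for these 8 and 0.0857 for Psmb10. The median log2 fold change was 0.95 over the 9 class I genes and 0.89 over all 750. The class I genes as a group thus lay close to the panel, and their own log2 fold changes ran from 0.33 to 1.26.

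**Figure D1:**
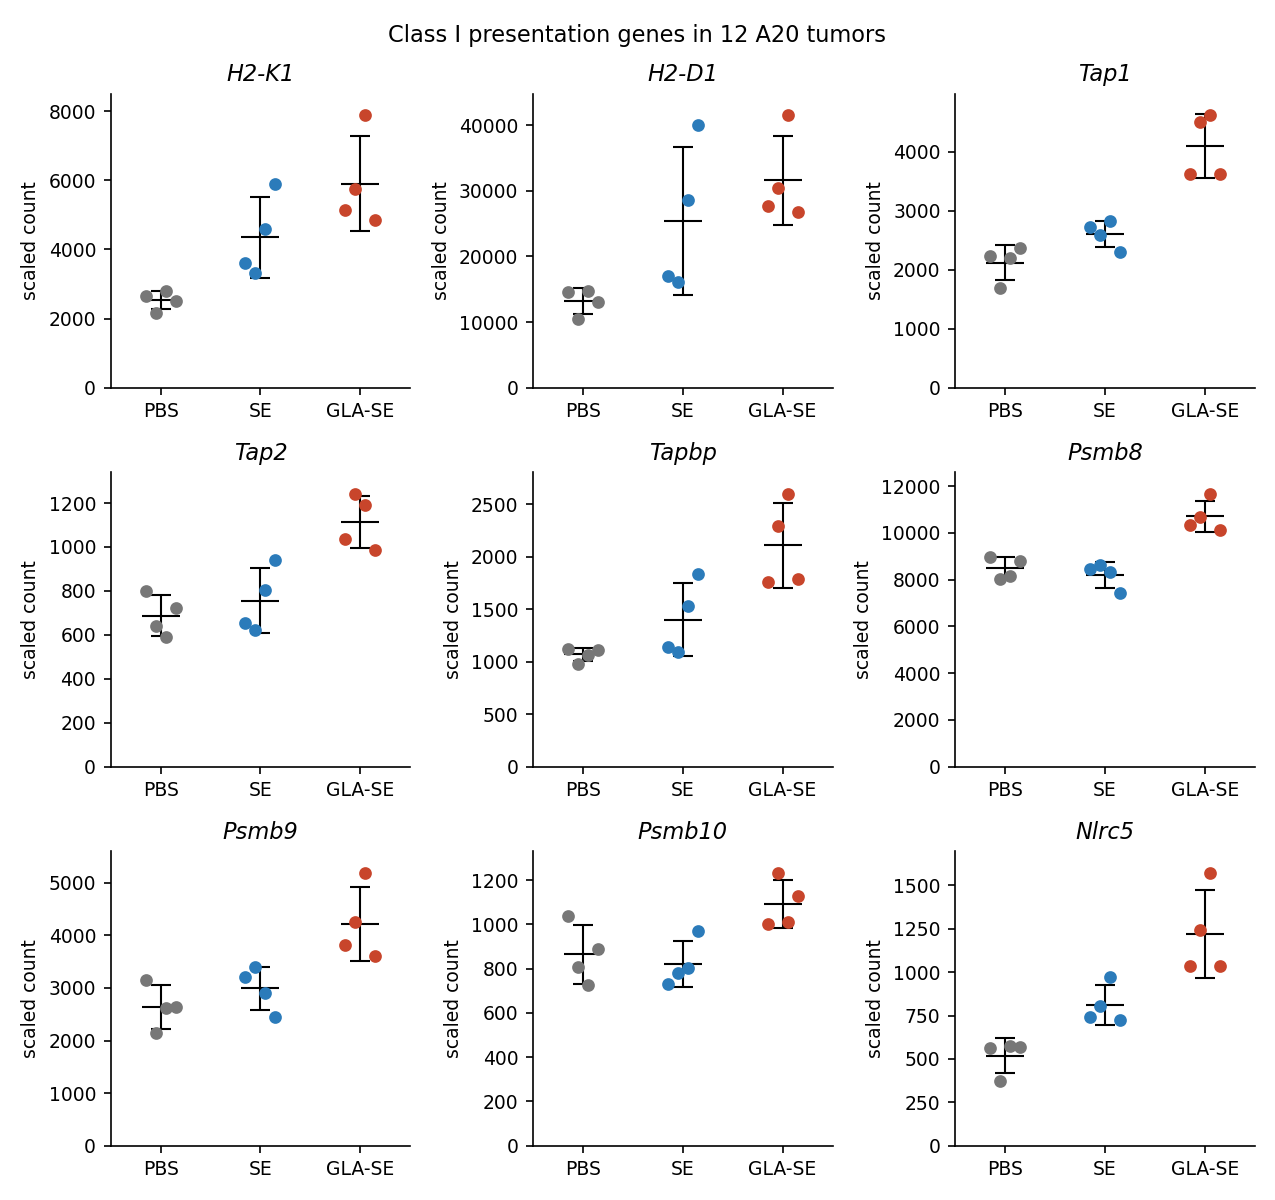
Scaled counts (y axis, each panel with its own scale from 0) of the 9 measured class I genes in PBS, SE and GLA-SE tumors (x axis). Points are single tumors, 4 per group, and the bar and whiskers are the mean and SD. On this reference gene scale GLA-SE tumors lie above all PBS tumors for every gene but Psmb10 (panel median scaling turns the direction of all 9), and in the SE group H2-D1 spreads from 16166 to 40060.4.

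H2-K1 and H2-D1 encode the classical class I heavy chains. The scaled counts of H2-K1 were 2642, 2168, 2807 and 2523 in PBS tumors and 5129.7, 5738, 7885 and 4852 in GLA-SE tumors. In SE tumors they were 3600.2, 3308, 4607 and 5908. The lowest GLA-SE tumor was above the highest PBS tumor by a wide margin, and the SE tumors lay between, with replicate 4 reaching into the GLA-SE range. H2-K1 rose 2.33-fold from PBS to GLA-SE (log2 fold change 1.22 ± 0.17 standard error, adjusted p = 0.000451 by edgeR).

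For H2-D1 the PBS tumors had 14595, 10474, 14711 and 12996 scaled counts, and the GLA-SE tumors had 27623, 30419, 41499 and 26739. The SE tumors had 16964.5, 16166, 28531 and 40060.4. The groups given PBS and GLA-SE did not overlap, and SE replicate 4 alone was close to the highest GLA-SE tumor. H2-D1 rose 2.39-fold from PBS to GLA-SE (log2 fold change 1.26 ± 0.17 standard error, adjusted p = 0.000457 by edgeR). This was the largest fold change among the class I genes, and it ranked 243rd of the 750 genes. The probe sequences were not in the sources used here, and whether the H2-K1 and H2-D1 probes also bind transcripts of related class I genes was not tested.

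Tap1 and Tap2 encode the subunits of the peptide transporter. Tap1 was measured at 2229, 1686, 2197 and 2368 scaled counts in PBS tumors and at 3627, 4511, 4622 and 3626 in GLA-SE tumors. In SE tumors it was 2721, 2591, 2823 and 2308. Here SE replicate 4 was the lowest of its group, although it was the highest for the heavy chains. Tap1 rose 1.93-fold from PBS to GLA-SE (log2 fold change 0.95 ± 0.14 standard error, adjusted p = 0.000662 by edgeR). Tap2 had 802, 639.5, 589 and 722 scaled counts in PBS tumors and 1038, 1239.8, 1189.95 and 988 in GLA-SE tumors. Its SE values were 656, 622, 802 and 943. The SE and PBS tumors overlapped, and all GLA-SE tumors lay above them. Tap2 rose 1.62-fold from PBS to GLA-SE (log2 fold change 0.70 ± 0.13 standard error, adjusted p = 0.00233 by edgeR).

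Tapbp encodes tapasin, which holds empty class I molecules at the transporter. Its scaled counts were 1120.1, 979.9, 1066 and 1114 in PBS tumors and 1763, 2293, 2597 and 1785 in GLA-SE tumors. The SE tumors had 1141, 1094, 1531 and 1834. In PBS tumors Tapbp varied little, while SE replicates 1 and 2 were at the PBS level and SE replicate 4 was within the GLA-SE range. Tapbp rose 1.97-fold from PBS to GLA-SE (log2 fold change 0.98 ± 0.14 standard error, adjusted p = 0.000674 by edgeR).

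The immunoproteasome subunits had the smallest fold changes. Psmb8, which replaces the standard beta-5 subunit, had 8957, 8029.8, 8141 and 8799 scaled counts in PBS tumors and 10336, 10673, 11646 and 10136 in GLA-SE tumors. In SE tumors it had 8446, 8623, 8336 and 7406. All GLA-SE tumors were above all others, by a small step. Psmb8 rose 1.26-fold from PBS to GLA-SE (log2 fold change 0.33, 95% interval 0.15 to 0.52, adjusted p = 0.00738 by edgeR). With this interval wholly below the panel's median of 0.89, it ranked 600th of 750.

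Psmb9, which replaces the beta-1 subunit and shares a promoter region with Tap1, was at 3148, 2137, 2616 and 2638 in PBS tumors and at 3822, 4258, 5181 and 3608 in GLA-SE tumors, in scaled counts. The SE values were 3202, 3389, 2913 and 2455. The GLA-SE tumors lay above the rest, and SE and PBS tumors overlapped. Psmb9 rose 1.60-fold from PBS to GLA-SE (log2 fold change 0.68 ± 0.15 standard error, adjusted p = 0.00491 by edgeR). Psmb10, which replaces the beta-2 subunit, had 1038, 809, 724 and 889.5 scaled counts in PBS tumors and 1003, 1230.45, 1011 and 1129.6 in GLA-SE tumors. In SE tumors it had 732, 781, 801 and 969. PBS replicate 1 was above the lowest GLA-SE tumors, so these groups overlapped. The log2 fold change of Psmb10 was 0.34 (95% interval 0.03 to 0.65), and it missed the threshold with an adjusted p of 0.052 by edgeR. It passed in the fits without PBS replicate 1 (adjusted p = 0.0213) and without GLA-SE replicate 3 (0.0396), and over the 8 fits that left out 1 tumor the adjusted p of edgeR ran from 0.0213 to 0.133.

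Nlrc5, the transactivator, had 563, 370.3, 573 and 569 scaled counts in PBS tumors and 1038, 1244, 1570.3 and 1033 in GLA-SE tumors. Its SE values were 743, 806, 974 and 725. On the reference gene scale the 3 groups did not overlap: every SE tumor was above every PBS tumor and below every GLA-SE tumor. The share of panel genes with such an order was not computed. Before scaling, the Nlrc5 counts overlapped, at 396 to 785 in PBS, 356 to 1111 in SE and 1016 to 1445 in GLA-SE tumors. Nlrc5 rose 2.35-fold from PBS to GLA-SE (log2 fold change 1.23 ± 0.19 standard error, adjusted p = 0.000981 by edgeR), close to the rise of the heavy chains.

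The direction of these changes depended on how the tumors were scaled. When tumors were instead scaled to the panel's median gene, the median log2 fold change of all 750 genes in GLA-SE against PBS moved from 0.89 to -0.40, and all 9 class I genes turned to values below 0, from -0.04 for H2-D1 to -0.95 for Psmb8. Under that scaling 0 of them were called higher by edgeR and 6 were called lower (Psmb8, Psmb9, Psmb10, Tap1, Tap2 and Tapbp). Of all 750 genes, 61 were called higher and 307 lower under it. With TMM scaling H2-D1 alone was called higher, and Psmb8 and Psmb10 were called lower, beside 148 of 750 genes higher and 168 lower. Without any rescaling all 9 stayed above 0, from 0.05 for Psmb8 to 0.95 for H2-D1. There 6 of the 9 were called higher and 0 lower, beside 351 of 750 genes higher and 17 lower. In this comparison the order within the group changed little, with the heavy chains and Nlrc5 highest and Psmb8 and Psmb10 lowest under each of the 5 scalings.

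**Figure D2:**
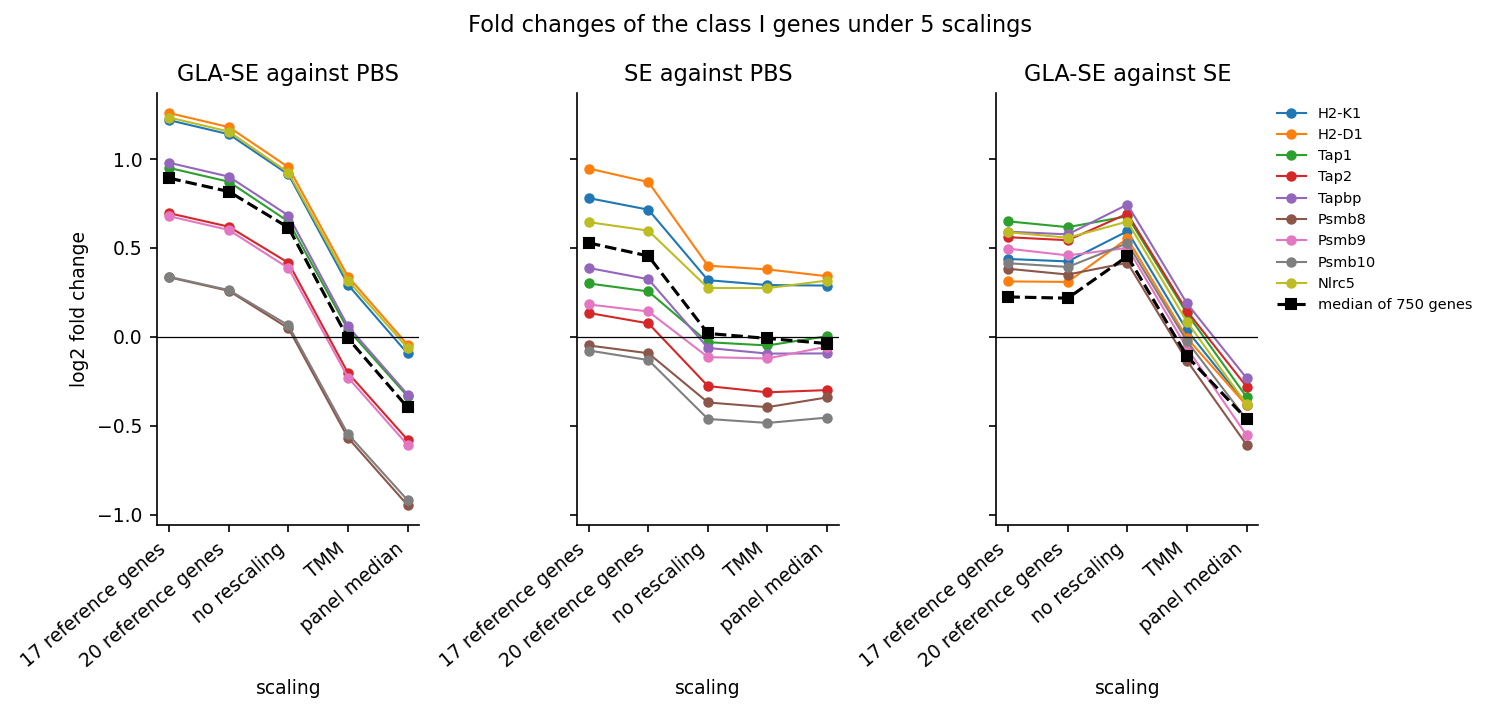
Log2 fold change (y axis) of the 9 class I genes under 5 scalings (x axis) in each of the 3 comparisons. Coloured lines are genes and the dashed black line is the median of the 750 genes. In GLA-SE against PBS the lines fall together with the panel median, from 0.89 with 17 reference genes to -0.40 with panel median scaling, and H2-D1, H2-K1 and Nlrc5 stay above it in that panel.

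SE against PBS addressed whether the emulsion alone changed the same genes. The heavy chains and Nlrc5 had the largest differences, 1.93-fold for H2-D1, 1.72-fold for H2-K1 and 1.56-fold for Nlrc5, and every SE tumor was above every PBS tumor for these 3 on the reference gene scale. Their fold changes were smaller under other scalings, with log2 fold changes of 0.27 to 0.40 under panel median scaling, TMM or no rescaling (unadjusted p = 0.106 to 0.467 by edgeR). Over the panel, 65 of 750 genes (8.67%) had every SE tumor higher. By edgeR 0 of the 9 class I genes and 0% of the panel passed (140 of 750 genes, among them these 3, had an unadjusted p under 0.05), and limma called none. The adjusted p was 0.243 for each of the 3, with log2 fold changes of 0.95 (95% interval 0.24 to 1.65) for H2-D1, 0.78 (0.32 to 1.24) for H2-K1 and 0.65 (0.20 to 1.09) for Nlrc5. DESeq2 with the reference gene size factors called these 3 higher, among 54 genes higher and 6 lower, whereas DESeq2 with its own size factors called 7 genes higher and 5 lower, and no class I gene.

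The other class I genes differed less between SE and PBS. The log2 fold changes were 0.39 for Tapbp (95% interval -0.04 to 0.82), 0.30 for Tap1 (-0.02 to 0.62), 0.18 for Psmb9 (-0.18 to 0.55) and 0.13 for Tap2 (-0.29 to 0.56). Psmb8 and Psmb10 were at -0.05 (-0.29 to 0.19) and -0.08 (-0.45 to 0.29). The median over the 9 genes was 0.30, against 0.53 over the panel. Without SE replicate 4 the log2 fold changes of H2-D1 and H2-K1 were 0.64 and 0.60, and the panel median was 0.21.

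GLA-SE against SE addressed what GLA added to the emulsion. All 9 class I genes had a log2 fold change above 0, from 0.31 for H2-D1 to 0.65 for Tap1, with a median of 0.50 against 0.22 over the panel. Each GLA-SE tumor was above each SE tumor for 6 of the 9 (Tap1, Tap2, Psmb8, Psmb9, Psmb10 and Nlrc5), as for 108 of 750 genes of the panel (14.4%). The heavy chains and Tapbp overlapped between the groups, H2-K1 and Tapbp through SE replicate 4 and H2-D1 through SE replicates 3 and 4. By edgeR 7 of the 9 had an unadjusted p under 0.05, as had 133 of 750 genes in either direction. After adjustment 0 of the 9 were called, against 16 of 750 genes called higher (2.13%), and limma also called 0 of the 9. Tap1 came closest, at 1.57-fold (log2 fold change 0.65, 95% interval 0.29 to 1.01, adjusted p = 0.0811 by edgeR). The intervals of H2-D1 (-0.44 to 1.07) and H2-K1 (-0.13 to 1.00) were the widest and reached below 0. Without SE replicate 4, Tap1 and Tap2 were called (adjusted p = 0.0362 each by edgeR), among 101 genes called higher, and H2-D1 was at 0.62 on the log2 scale. Over all fits without 1 tumor the adjusted p ran up to 0.221 for Tap1 and 0.379 for Tap2. DESeq2 with the reference gene size factors called the 6 genes whose groups did not overlap, among 102 of 750 genes called higher. A single fit over all 12 tumors called Tap1 and Psmb8, among 69 called higher. Under panel median scaling all 9 log2 fold changes of GLA-SE against SE were below 0, and none was called.

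**Figure D3:**
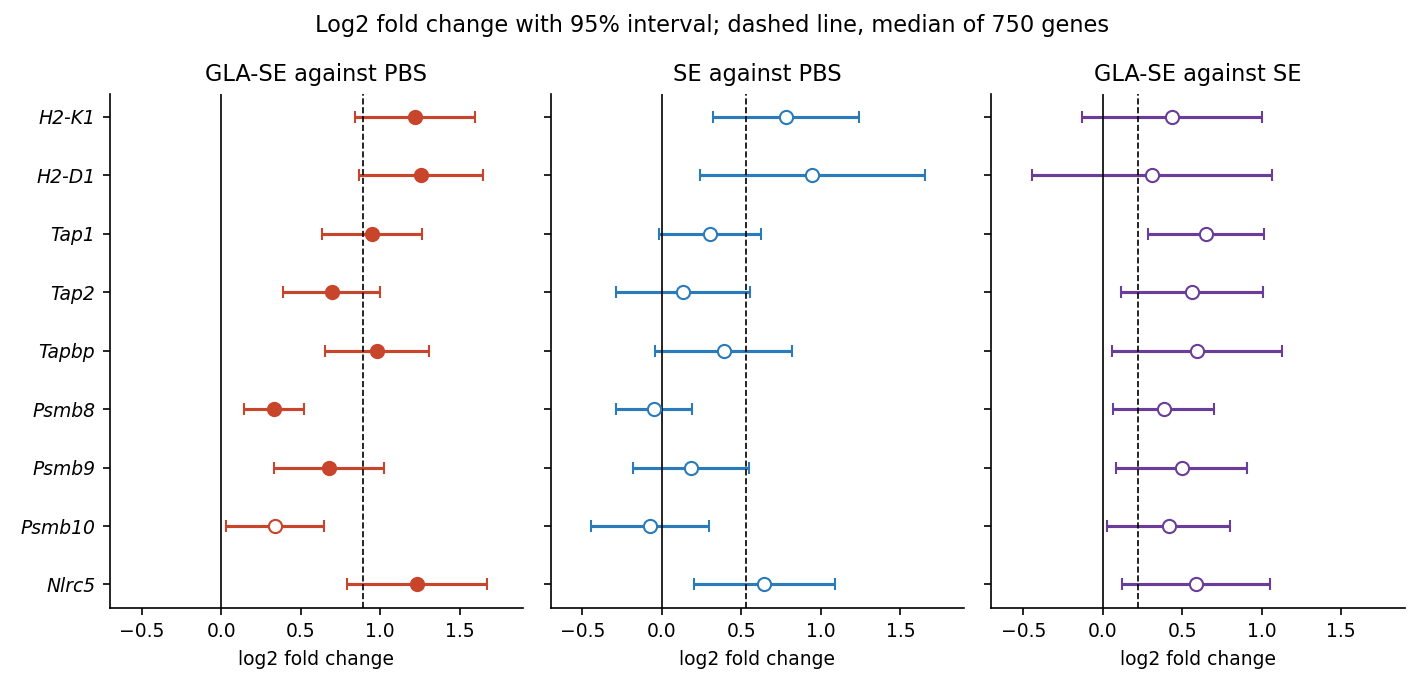
Log2 fold change (x axis, with its 95% interval) of the 9 class I genes (y axis) in the 3 comparisons. Filled points passed an adjusted p of 0.05 and open points did not, and the dashed line is the median of the 750 genes. On the reference gene scale shown here the heavy chains and Nlrc5 lead in both comparisons with PBS, and Tap1 leads in GLA-SE against SE.

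On the reference gene scale, levels of some cell markers moved with the heavy chains within the SE group. The summed scaled count of 8 macrophage markers was 5878 and 5494 in SE replicates 1 and 2 but 20762 and 30059 in replicates 3 and 4, against 6097 to 7288 in PBS and 16229 to 21683 in GLA-SE tumors. The summed level of 8 endothelium and fibroblast markers was 3493, 4427, 28047 and 120497 in SE replicates 1 to 4, against 4047 to 9177 in PBS and 17990 to 26332 in GLA-SE tumors. Most of this sum came from the collagen genes Col1a1 and Col3a1, at 8373 and 18340 in SE replicate 3 and at 24703 and 91073 in SE replicate 4. The endothelial gene Pecam1 was at 346, 359, 493 and 1857 in SE replicates 1 to 4, against 280 to 437 in PBS tumors. The summed level of the 10 B-cell markers went the other way, at 22569, 25694, 19263 and 15361 in SE replicates 1 to 4. H2-D1, H2-K1, Tapbp, Tap2 and Psmb10 were higher in both SE replicates 3 and 4 than in replicates 1 and 2. Psmb8 and Psmb9 were lower there, and Tap1 and Nlrc5 were highest in replicate 3 and lowest in replicate 4. For the heavy chains this order depended on the scaling. Before scaling, H2-K1 had 5384, 3177, 3688 and 2902 counts in SE replicates 1 to 4, and H2-D1 had 25370, 15525, 22842 and 19679. On the reference gene scale all 8 macrophage markers were called higher in GLA-SE against PBS, and so were all 8 endothelium and fibroblast markers, 4 of 6 neutrophil, 4 of 5 NK cell, 5 of 9 T cell and 2 of 4 dendritic cell markers, beside 68.3% of the panel. The levels summed over the neutrophil markers were 243 to 276 in PBS, 224 to 767 in SE replicates 1 to 3, 4582 in SE replicate 4 and 1207 to 11222 in GLA-SE tumors. For NK cell markers the sums were 266 to 870.4, 314 to 920.1 and 1246 to 1470.3 in PBS, SE and GLA-SE tumors. For T cell markers they were 947 to 2638 in PBS, 799 to 1443 in SE replicates 1 to 3, 5586 in SE replicate 4 and 2668 to 3682 in GLA-SE tumors. Dendritic cell markers summed to 775 to 1073, 994 to 1643 and 1456 to 5240.1. Of the defining markers, none was listed at 0, and the lowest were the neutrophil granule genes Ltf and Camp, with group means of 10.1 to 14.6 and 8.48 to 13.7 scaled counts. Of 10 B-cell markers 0 were called higher and 2 lower, Ms4a1 (the CD20 gene, log2 fold change -0.45) and Cd79b (-0.41), in GLA-SE against PBS. Under panel median scaling 1 macrophage marker and no endothelium or fibroblast marker was called higher, and all 10 B-cell markers were called lower. Over the panel, 61 of 750 genes were called higher and 307 lower under that scaling. The part of these cells in the class I levels was not tested.

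**Figure D4:**
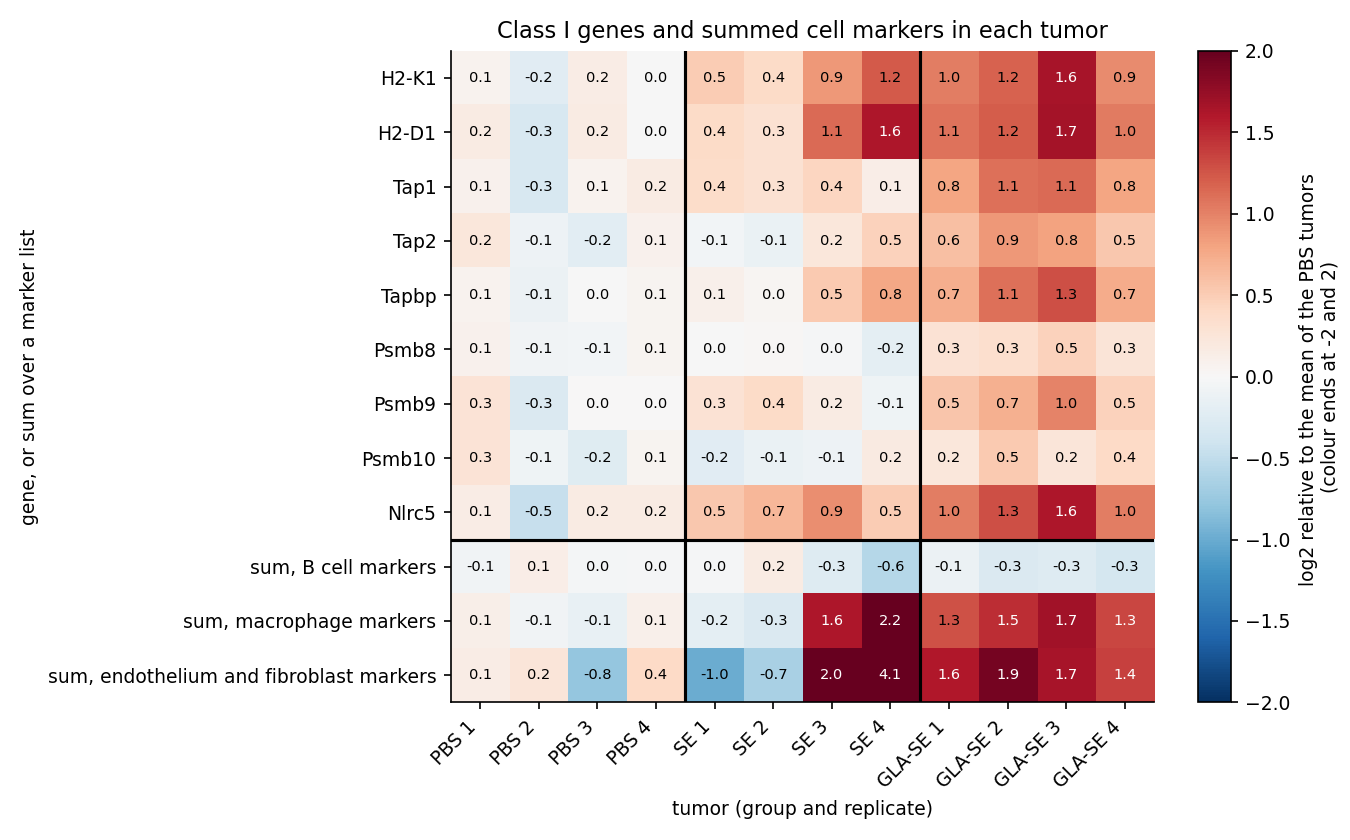
Log2 level of each measured class I gene (upper 9 rows) and of the summed scaled counts of 3 marker lists (lower rows) in each tumor (columns), relative to the mean of the PBS tumors, on the reference gene scale. Red is higher and blue lower, and the printed values are log2 differences. In the SE group the 2 tumors with high sums of macrophage and of endothelium and fibroblast markers, replicates 3 and 4, are those with the highest H2-D1 and H2-K1.

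The members of the machinery were also compared with each other inside each tumor, since a ratio of 2 counts from the same tumor is the same under every scaling. Psmb7, the standard beta-2 subunit that Psmb10 replaces, served as a proteasome gene outside the immunoproteasome. It had 3765 to 3994 scaled counts in PBS, 3558 to 3898 in SE and 3832 to 5043 in GLA-SE tumors. Neither Psmb7 nor the other standard subunits of the panel, Psma2 and Psmd7, passed the test in any comparison on the reference gene scale. All 3 were called lower in GLA-SE against PBS under panel median scaling, among 307 of 750 genes called lower. The ratio of Psmb9 to Psmb7 was 0.788, 0.546, 0.692 and 0.701 in PBS tumors and 0.997, 1.01, 1.03 and 0.846 in GLA-SE tumors. These did not overlap, and the mean log2 ratio was 0.52 higher in GLA-SE tumors (exact two-sided permutation p = 0.0286, the smallest that 4 against 4 can give, adjusted p = 0.229 over 24 ratio tests). In SE tumors this ratio was 0.822, 0.910, 0.773 and 0.690. Psmb8 and Psmb10 showed smaller differences against Psmb7 between GLA-SE and PBS, 0.18 and 0.19 on the log2 scale, with overlapping groups.

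H2-K1 and H2-D1 kept nearly the same proportion in PBS and GLA-SE tumors, with a ratio of 0.181 to 0.207 and of 0.181 to 0.190. In SE tumors it was 0.212, 0.205, 0.161 and 0.147, so the replicates 3 and 4 had relatively more H2-D1. The ratio of Tap1 to Psmb9, the gene pair with a shared promoter region, was 0.708 to 0.897 in PBS, 0.764 to 0.969 in SE and 0.892 to 1.06 in GLA-SE tumors. The difference between GLA-SE and PBS was 0.27 on the log2 scale (exact permutation p = 0.0571, adjusted p = 0.229). Nlrc5 against Ciita, the class II transactivator, was 1.28 to 1.36 in PBS, 1.29 to 1.81 in SE and 1.19 to 1.63 in GLA-SE tumors, and H2-K1 against the class II gene H2-Ab1 was 0.212 to 0.236, 0.221 to 0.372 and 0.235 to 0.259. Of the 24 ratio tests (8 ratios, 3 comparisons) 0 passed after adjustment, the smallest adjusted p being 0.229, and 1 had an unadjusted exact p under 0.05.

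**Figure D5:**
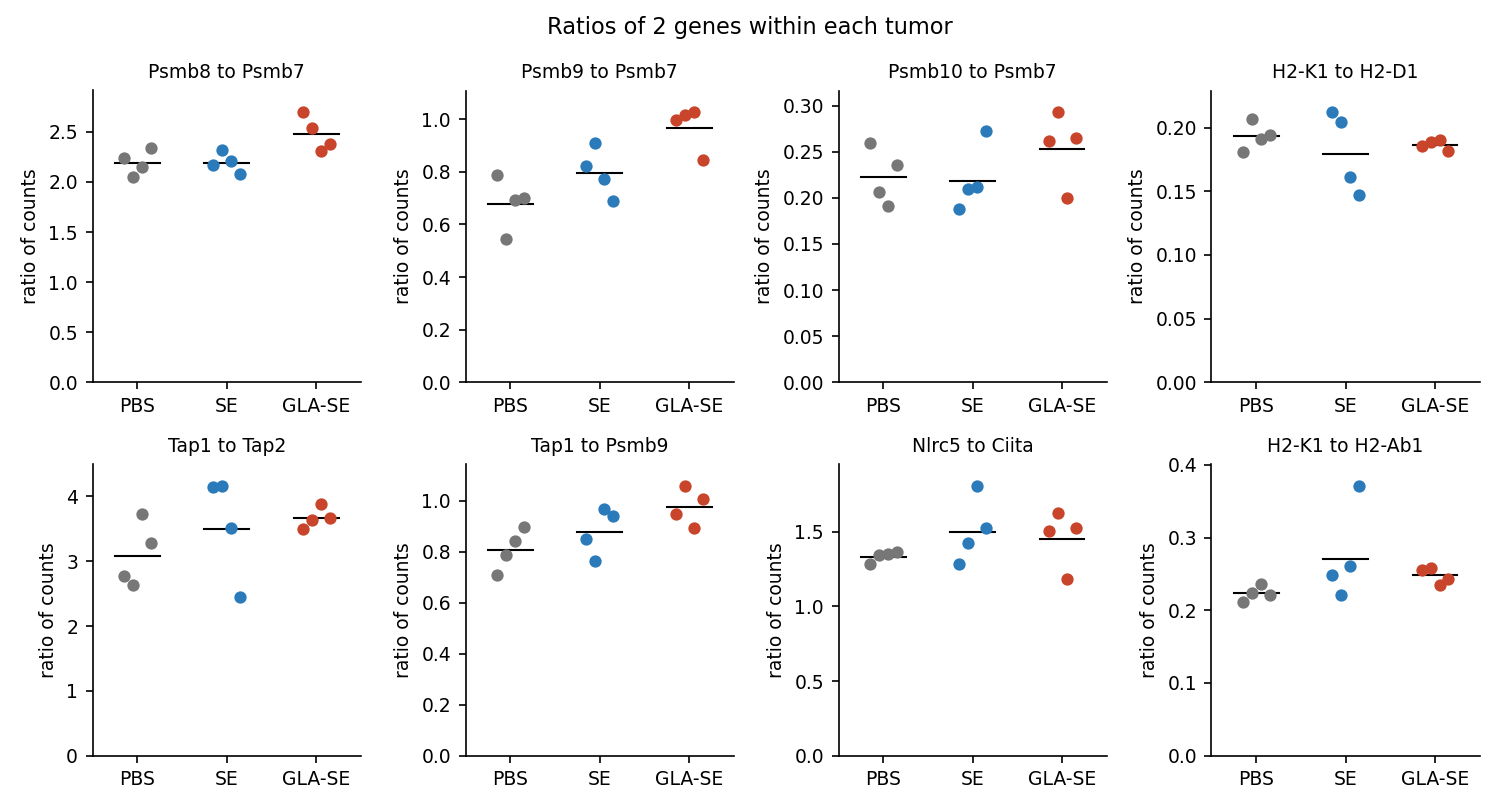
Ratio of the counts of 2 genes (y axis, each panel with its own scale from 0) in PBS, SE and GLA-SE tumors (x axis). Points are single tumors, 4 per group, and lines are geometric means. Psmb9 to Psmb7 is the ratio whose PBS and GLA-SE tumors do not overlap, and H2-K1 to H2-D1 is lowest in SE replicates 3 and 4, at 0.161 and 0.147.

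The ratios of H2-K1, H2-D1 and Tap1 to Psmb8 were formed after the values had been seen, and these 3 were given no test. H2-K1 against Psmb8 was 0.270 to 0.345 in PBS, 0.384 to 0.798 in SE and 0.479 to 0.677 in GLA-SE tumors. The ratio was 1.82-fold higher in GLA-SE and 1.74-fold higher in SE than in PBS tumors, in each case without overlap. For H2-D1 against Psmb8 the corresponding folds were 1.88 and 1.87, and for Tap1 against Psmb8 they were 1.53 and 1.28, again without overlap. Without SE replicate 4 the folds in SE against PBS were 1.51 for H2-K1, 1.52 for H2-D1 and 1.29 for Tap1. Such a ratio within a tumor does not depend on how the tumors were scaled, but it does depend on the partner gene. Psmb8 ranked 600th of 750 in GLA-SE against PBS, with a log2 fold change of 0.33 against a panel median of 0.89. In SE against PBS it was at -0.05 against a panel median of 0.53. A gene at the panel median would therefore also rise against Psmb8, and the share of panel genes without overlap was not computed.

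Other genes of the pathway lay near the panel as well in GLA-SE against PBS, where 68.3% of all genes were called higher, and the directions given for them hold on the reference gene scale. Of 8 class I-like genes, 6 were called higher in GLA-SE against PBS and 0 lower, with a median log2 fold change of 1.00 that became -0.29 under panel median scaling. The largest rises were in H2-Q10, a nonclassical heavy chain (log2 fold change 1.70 ± 0.35 standard error, adjusted p = 0.00315 by edgeR), and in Cd1d1, which presents lipids to NKT cells (1.54, standard error 0.21, adjusted p = 0.000451 by edgeR). Of 16 interferon and NF-kB regulators 15 were called higher and 0 lower, led by Irf7, a transcription factor of the interferon response (1.68, standard error 0.18), and Jak2, a kinase of the interferon gamma receptor (1.43, standard error 0.30). The median over these 16 was 0.86, and -0.44 under panel median scaling. Among those named after their values were seen, Ifnb1, which encodes interferon beta, was near the bottom of the count range, with group means of 10.8 to 11.7 scaled counts. Ifng, the gene for interferon gamma, was at 22.3 ± 7.08 in PBS, 24.8 ± 4.08 in SE and 56.4 ± 16.4 in GLA-SE tumors (SD, n = 4). Of 10 class II presentation genes 10 were called higher, with a median of 0.94 (-0.39 under panel median scaling), led by Ciita (1.15, standard error 0.25) and the class II beta chain H2-Eb1 (1.14, standard error 0.17). In SE against PBS 0 genes of these 3 lists were called by edgeR.

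Outside these lists, the panel genes whose levels followed the mean of the class I genes most closely over the 12 tumors were Cd48, Sigirr, Itgb3, Gfi1 and Mapkapk2, with a root mean square difference of 0.14 to 0.17 on the log2 scale after each gene was set to its PBS mean. By the same measure Tapbp was the closest member at 0.13 and H2-D1 the farthest at 0.45, although each member is itself part of that mean. The median difference over the 654 tested genes outside the lists was 0.62. The mean over the 9 members relative to PBS was highest in GLA-SE replicate 3 (1.09 on the log2 scale) and ran from 0.69 to 0.92 in the other GLA-SE tumors and from 0.20 to 0.51 in SE tumors.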

How the data were processed

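RNA of 12 tumors was hybridized to the panel, and the values deposited by the authors are counts of probes per gene and tumor. The study's methods describe normalization in nSolver, yet the deposited counts are whole numbers with unequal totals (810260 to 1612415), and were therefore taken here as raw. The assay aligns no reads, so that no build applies to the counts.

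The geNorm procedure kept 17 of 20 reference genes over all 12 tumors, and counts were divided by each tumor's geometric mean over them. The other 750 genes were tested with edgeR 4.0.16 (R 4.3.3), quasi-likelihood, 2 groups per fit, with no filter and no covariate, with Benjamini-Hochberg adjustment (threshold 0.05). Ratios and single genes had two-sided exact permutation tests over 70 assignments of 4 tumors against 4. Fits were tested on simulated data. The settings tried beside these were a low count filter (20 counts in 4 or more tumors), other reference sets and scalings, limma 3.58.1 (pseudocount 10), DESeq2 1.42.0, all tumors in 1 fit, a replicate block and leaving out each tumor. Motif searches used Python 3.11.15. Precision is limited by 4 tumors per group, since the lowest deposited count of a measured class I gene was 356 (Nlrc5, SE replicate 4).

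The members and gene lists were chosen with earlier results of these data known. All 10 members are named, with up to 4 genes per other list (the largest rises and falls among genes called in GLA-SE against PBS), the ratio partners, and the 5 genes nearest to the members' mean. Exceptions are Ifnb1, Ifng, Ltf, Camp and Cd79a, named after their values were seen. The calls in the other pathway lists in GLA-SE against SE are not reported here.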

Additional observations from a re-analysis of the deposited data

Results flagged for a closer look

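Among 51 groups of 4 tumors searched (9 genes and 8 ratios in 3 groups), 2 held a tumor far from the other 3 of its group by Dixon's criterion, where chance alone gives 2.55. Nlrc5 was 370.3 scaled counts in PBS replicate 2 and 563 to 573 in the other PBS tumors. The ratio of Psmb9 to Psmb7 was 0.846 in GLA-SE replicate 4 and 0.997 to 1.03 in the other GLA-SE tumors. PBS replicate 2 was also the lowest PBS tumor for H2-K1, H2-D1, Tap1, Tapbp, Psmb8 and Psmb9. Without PBS replicate 2 Nlrc5 stayed called in GLA-SE against PBS.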

How the results depend on the processing

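In GLA-SE against PBS 8 class I genes were called, and 8 or 9 were called with a filter, other reference genes, limma, DESeq2 with the reference gene size factors, 1 fit over all tumors and without any 1 tumor (6 without rescaling). Under panel median scaling 0 were called higher, and the log2 fold changes were -0.044 (H2-D1), -0.093 (H2-K1), -0.062 (Nlrc5), -0.33 (Tap1), -0.58 (Tap2), -0.32 (Tapbp), -0.95 (Psmb8), -0.61 (Psmb9) and -0.92 (Psmb10). With TMM scaling 1 was called higher, and Tap2 (-0.20), Psmb8 (-0.57), Psmb9 (-0.23) and Psmb10 (-0.55) reversed. With DESeq2's own size factors 3 were called higher and 2 lower (Psmb8 and Psmb10), and the same 4 reversed (-0.14, -0.51, -0.17 and -0.48). Panel median scaling moved the median of all genes in this comparison from 0.89 to -0.40, TMM to -0.0087 and DESeq2's factors to 0.049, so the reversals go with that shift. The split of calls over the panel was 512 higher and 3 lower in the main fit, 61 and 307 under panel median scaling, 148 and 168 with TMM, 193 and 153 with DESeq2's factors, and 253 and 0 in 1 fit over all tumors.

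In SE against PBS 0 were called, 3 with DESeq2 and the reference gene size factors, and 0 in every other setting. Reversals there were Tap2, Tapbp and Psmb9 under panel median scaling (-0.30, -0.093 and -0.054) and with DESeq2's own size factors (-0.26, -0.040 and -0.068), the same genes and Tap1 under TMM (-0.31, -0.094, -0.12 and -0.048) and without rescaling (-0.28, -0.062, -0.11 and -0.030), and Psmb10 without PBS replicate 1 (0.023). The log2 fold change of Psmb10 without 1 tumor ran from -0.17 to 0.023.

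In GLA-SE against SE 0 were called, 6 with DESeq2 and the reference gene size factors, 2 in 1 fit over all tumors, and 0 to 2 when 1 tumor was left out (2 without SE replicate 4). All 9 reversed under panel median scaling: H2-D1 (-0.39), H2-K1 (-0.38), Nlrc5 (-0.38), Tap1 (-0.34), Tap2 (-0.28), Tapbp (-0.23), Psmb8 (-0.61), Psmb9 (-0.55) and Psmb10 (-0.46). H2-D1, Psmb8, Psmb9 and Psmb10 reversed with TMM (-0.0064, -0.13, -0.063 and -0.025), and these with H2-K1 and Nlrc5 reversed with DESeq2's own factors (-0.077, -0.23, -0.16, -0.11, -0.043 and -0.0034). The panel's calls were 16 higher in the main fit, 102 with DESeq2 and the reference gene size factors, 54 with its own factors, 88 without rescaling, 69 in 1 fit over all tumors, 3 with TMM and 0 under panel median scaling. Without 1 tumor they were 101 (SE replicate 4), 4 to 7 (SE replicates 1, 2 and 3, GLA-SE replicates 2 and 4) or 14 to 17. Across the comparisons the cause of the differences between tools was not tested.

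Samples with the same replicate number in 2 groups had deviations from their group means that correlated at -0.25 to 0.18. The highest correlation with a sample of another number was 0.013 to 0.21. The sample titles do not say what the number stands for, so whether such samples share more than a number cannot be told. With the replicate block 8 class I genes were called in GLA-SE against PBS and 0 in the other comparisons. The panel's calls moved from 512 to 438 higher in GLA-SE against PBS and from 16 to 0 in GLA-SE against SE. No ratio changed its side of the threshold with a pseudocount of 0.5.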
